A study of Mus musculus with 11 samples.

Results

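T cells stimulated with dendritic cells of lymph node origin were compared with T cells stimulated with dendritic cells of liver or spleen, 2 organs that filter the blood. The comparison takes in all 11 arrays of the series: 6 from node cultures (3 with MLN and 3 with PLN dendritic cells) and 5 from blood-filtering cultures (3 with Liver and 2 with Spleen dendritic cells). All T cells were of the B10.BR mouse strain, all dendritic cells of the C57BL/6 strain, and all cultures had run for 4 days before total RNA of the T cells was taken. MLN and PLN usually stand for mesenteric and for peripheral lymph node, which the labels leave unexpanded. The labels name no treatment, no allele and no age, and neither T cells without dendritic cells nor a reference organ is among the arrays, so each value is a contrast between organs and has no unstimulated background. Replicates are numbered 2, 3 and 4 for Liver, MLN and PLN, and 3 and 4 for Spleen. The number was used as a block, because arrays that share it deviate together. The labels are silent on whether arrays of an organ came from separate cultures or mice, so a p-value here measures array-to-array spread that may be technical. Each class of culture rests on 2 organs.

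A T cell that meets dendritic cells of another strain recognises their foreign major histocompatibility molecules and is driven to divide, to raise its use of glucose and to make cytokines. Naive T cells meet dendritic cells in lymph nodes, where tissue-derived dendritic cells arrive through lymph, and in spleen, which like liver takes its cells and antigen from blood. Helper T cells can become type 1 cells, which make interferon gamma, type 2 cells, which make interleukins 4, 5 and 13, or regulatory cells, which restrain the others. Vitamin A metabolites made by some gut-associated dendritic cells act on T cells as retinoic acid and are known for imprinting gut homing.

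Levels are given as log2(intensity + 16) after quantile normalisation, with 1 probe set per gene, and differences are node minus blood-filtering on that log2 scale. On this scale the change of a dim gene is understated. The 11 arrays had median intensities of 144.3 to 170.4 before normalisation and correlated pairwise at 0.966 to 0.985. Across the 12393 genes the replicate number took 38.4% of the variance, the class of organ 10.8%, the organ within its class 15.2%, and 35.6% was left. These shares were taken in that order and rest on unequal degrees of freedom. Noise alone gives each term a share, so 10.8% is not the size of a class effect.

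T cells from node cultures had more RNA of Gem, Basp1, Wars, Ltb4r1, Paxbp1, Hk2, Gadd45g and Jarid2, and less of Il1b, Clec4e, Cdc25b, Ablim1 and Epsti1. The 8 that rose did so by 0.37 to 0.79 on the log2 scale and the 5 that fell by 0.30 to 1.33. These are 13 of 12393 genes, or 0.105%, in limma at a Benjamini-Hochberg adjusted p under 0.05, with 8 higher (0.0646%) and 5 lower (0.0403%). Their adjusted p ran from 0.0311 to 0.0457. With the 13 counted in, the unadjusted p was under 0.05 in 1669 genes (13.5%), and 322 (2.60%) had an adjusted p under 0.1. Both nodes and both other organs went the same way in all 13, as described organ by organ further on.

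Of the 5 genes that fell, 2 are best known from myeloid cells. Il1b encodes interleukin 1 beta, an inflammatory cytokine. Its log2 levels were 7.07, 6.94 and 6.97 with MLN, 6.81, 7.80 and 7.39 with PLN, 8.0, 8.42 and 8.37 with Liver, and 8.76 and 8.55 with Spleen dendritic cells. All 6 node arrays lay below all 5 blood-filtering arrays, and Il1b fell by 1.20 (SE 0.16, limma adjusted p = 0.0311). Clec4e encodes Mincle, a lectin receptor for microbial glycolipids and dead cells. It stood at 6.22, 6.25 and 5.97 with MLN, 6.12, 5.81 and 5.57 with PLN, 7.33, 6.87 and 7.26 with Liver, and 7.81 and 7.21 with Spleen. The classes did not overlap here either, and Clec4e fell by 1.33 (SE 0.19, adjusted p = 0.0326); it is a dim gene, and its second, still dimmer probe set differed by -0.80.

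The other 3 genes that fell are a regulator of cell division, a cytoskeletal gene and an interferon-induced gene. Cdc25b encodes a phosphatase that starts mitosis. It stood at 9.01, 8.99 and 9.99 with MLN, 8.91, 8.99 and 9.83 with PLN, 9.55, 9.34 and 10.40 with Liver, and 9.25 and 10.51 with Spleen. Replicate 4 was high in every organ, so the classes overlapped as a whole but were apart within each replicate, and Cdc25b fell by 0.47 (SE 0.07, limma adjusted p = 0.0326). Ablim1, an actin-binding protein, fell by 0.35 (SE 0.05) and Epsti1, an interferon-induced gene, fell by 0.30 (SE 0.05), both at adjusted p = 0.0457. Their classes too were apart within each replicate and overlapped over all arrays. Of the 2 other Epsti1 probe sets, the bright one differed by -0.29 and the dim one by -0.04.

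Among the 8 genes that rose, Gem had the smallest p. It encodes a small GTP-binding protein induced by mitogens. Its levels were 9.33, 9.76 and 10.21 with MLN, 9.32, 9.37 and 10.36 with PLN, 8.43, 8.96 and 9.29 with Liver, and 9.14 and 9.29 with Spleen. The lowest node array lay just above the highest blood-filtering arrays, and Gem rose by 0.79 (SE 0.10, limma adjusted p = 0.0311). Basp1, a membrane-associated protein of the inner cell surface, stood at 11.52, 11.20 and 11.93 with MLN, 11.34, 10.96 and 11.60 with PLN, 10.29, 10.47 and 10.93 with Liver, and 10.71 and 10.91 with Spleen. Its classes also did not overlap, and Basp1 rose by 0.79 (SE 0.10, adjusted p = 0.0311).

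Metabolic genes were among those that rose. Hk2 encodes the hexokinase that traps glucose in activated cells. Its levels were 11.49, 11.61 and 11.42 with MLN, 11.33, 11.40 and 11.46 with PLN, 10.63, 11.02 and 10.91 with Liver, and 11.24 and 11.09 with Spleen. All node arrays lay above all blood-filtering arrays, Liver was lowest, and Hk2 rose by 0.50 (SE 0.08, limma adjusted p = 0.0457). Wars, the tryptophan-tRNA synthetase, stood at 10.46, 10.69 and 10.62 with MLN, 10.67, 10.62 and 10.47 with PLN, 10.15, 10.29 and 9.95 with Liver, and 10.35 and 10.01 with Spleen. Again the classes were apart over all arrays, and Wars rose by 0.44 (SE 0.06, adjusted p = 0.0311). Its 3 other probe sets were higher in node cultures as well, by 0.21, 0.53 and 0.24.

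The remaining 4 that rose overlapped between classes over all arrays and were apart within each replicate. Ltb4r1, the receptor of the chemoattractant leukotriene B4, rose by 0.75 (SE 0.11, limma adjusted p = 0.0326). It was highest in replicate 4, at 10.60 with MLN, 10.38 with PLN, 9.54 with Liver and 9.62 with Spleen. Gadd45g, a stress-response gene, rose by 0.74 (SE 0.12), Paxbp1 by 0.61 (SE 0.09) and Jarid2, a partner of the Polycomb complex, by 0.37 (SE 0.06), each at adjusted p = 0.0457. The other 2 probe sets of Jarid2 stood at 0.26 and 0.44, whereas those of Paxbp1 stood at 0.20 and -0.02, the last of them near the floor of the scale.

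**Figure D1:**
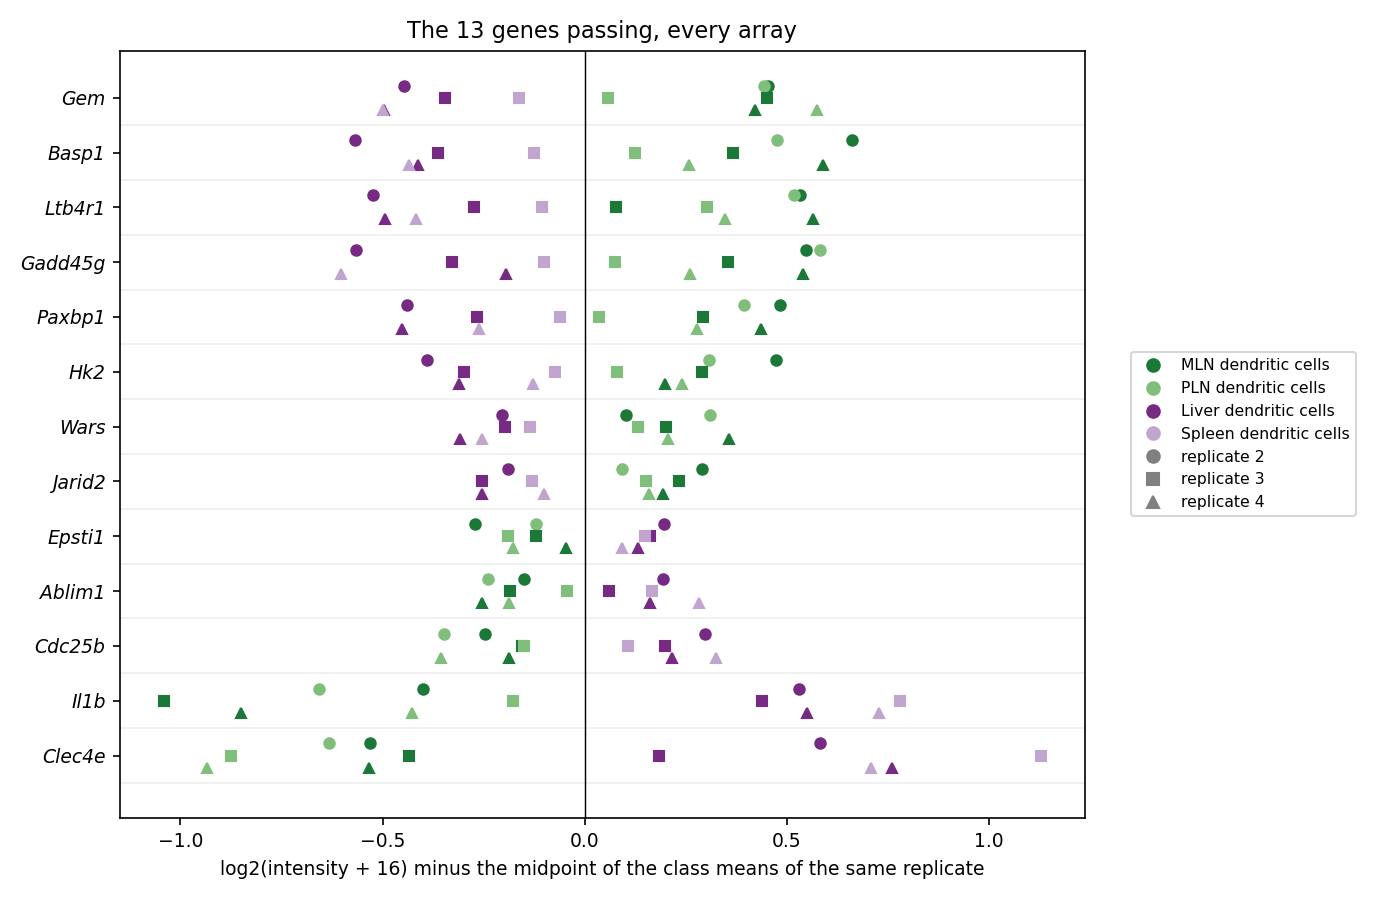
Levels of the 13 genes that passed, on every array. The horizontal axis is log2(intensity + 16) minus the midpoint of the 2 class means of the same replicate, colour is the organ and marker the replicate number; within each replicate the node arrays (greens) lie on 1 side of the blood-filtering arrays (purples) for all 13 genes.

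The 250 bases before the annotated start of 3 of these genes are shown, because they belong to the genes of smallest p in each direction and let the promoters of genes that rose and fell be read side by side. The sequences are those of RefSeq on GRCm38.p6, that of Gem was not used here, and capitals mark a match to 1 of the motifs searched.
Basp1: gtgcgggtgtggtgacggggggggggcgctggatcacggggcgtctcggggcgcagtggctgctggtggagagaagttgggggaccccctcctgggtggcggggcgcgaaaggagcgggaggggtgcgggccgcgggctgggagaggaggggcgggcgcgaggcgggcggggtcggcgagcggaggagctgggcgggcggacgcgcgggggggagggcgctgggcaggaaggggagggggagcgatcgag
Il1b: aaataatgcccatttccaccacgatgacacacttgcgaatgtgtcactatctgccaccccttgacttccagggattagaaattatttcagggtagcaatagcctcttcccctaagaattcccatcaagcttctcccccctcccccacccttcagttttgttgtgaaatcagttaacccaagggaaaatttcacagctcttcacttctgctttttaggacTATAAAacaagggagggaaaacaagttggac
Cdc25b: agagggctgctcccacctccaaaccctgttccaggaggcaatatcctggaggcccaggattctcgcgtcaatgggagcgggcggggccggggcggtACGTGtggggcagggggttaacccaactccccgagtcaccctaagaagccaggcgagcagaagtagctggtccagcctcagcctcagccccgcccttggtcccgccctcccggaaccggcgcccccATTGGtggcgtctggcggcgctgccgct
They lie at chr15:25413765-25414014 on the minus strand for Basp1, chr2:129371140-129371389 on the minus strand for Il1b and chr2:131186698-131186947 on the plus strand for Cdc25b. Searched on both strands were the TATA box TATAAA, the CCAAT box CCAAT, the AP-1 site TGANTCA, the cyclic AMP response element TGACGTCA, the STAT site TTCNNNGAA, the hypoxia response element ACGTG and the C/EBP site TTGCNNAA. Il1b had TATAAA with its first base at -31 from the start, and TATAAA occurred in 12.4% of 32851 promoter windows of that length. Cdc25b had the reverse of CCAAT at -28 and ACGTG at -154, found in 33.8% and 16.6% of windows. Basp1 held none of the 7 motifs in this window; the other motifs occurred in 6.75% (AP-1), 1.55% (cyclic AMP), 7.02% (STAT) and 9.56% (C/EBP) of windows. A match is a description of the letters and not of binding.

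The number of genes that pass depended on which genes were tested. Among the brightest 60%, the 7436 genes with a mean level above an intensity of 104.7, 225 passed (3.03%), with 134 higher (1.80%) and 91 lower (1.22%). They include 12 of the 13; Clec4e was too dim to be tested. After median centring in place of quantile normalisation the same test gave 131 higher and 27 lower, and with intensities as deposited 130 and 125, so the balance between rise and fall depended on the scaling. Without the replicate block 0 met the threshold of limma's adjusted p in either set, and 781 of 12393 genes had an unadjusted p under 0.05. In what follows, a gene said to pass among the brighter genes passed there, and its adjusted p is the one adjusted over those 7436 genes. The filter uses the mean over all arrays, so a gene near the cut or with a wide difference can enter through the class where it is high. The calls of Cd14, Lyz2, Nt5e, Gcnt2 and Hspa1a among the brighter genes are to be read with that limit.

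Single arrays also set the count. Leaving out each array in turn gave 0 to 208 genes among all 12393, with 0 in 7 of 11 cases. The count was 0 without Liver replicates 2, 3 or 4, MLN replicates 2 or 4 or PLN replicates 2 or 4, and 1 without MLN replicate 3 or Spleen replicate 4. It was 153 without PLN replicate 3 and 208 without Spleen replicate 3. The 13 genes kept their direction in all 11 cases, with adjusted p of at most 0.182. They were called on these same arrays, most of which remain in each case, so a kept direction adds no test. Among the brighter genes, leaving out Liver replicate 2, 3 or 4 gave 0, 128 or 19 genes. Leaving out MLN replicate 2, 3 or 4 gave 80, 140 or 10, leaving out PLN replicate 2, 3 or 4 gave 135, 286 or 152, and leaving out Spleen replicate 3 or 4 gave 377 or 101. Each time all 225 kept their direction, which likewise adds no test. With a whole organ left out, 0 genes passed in either set without MLN or without Liver arrays, 33 and 181 without PLN arrays, and 126 and 272 without Spleen arrays. Where a gene or list is given below as passing among the brighter genes, these counts apply.

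**Figure D2:**
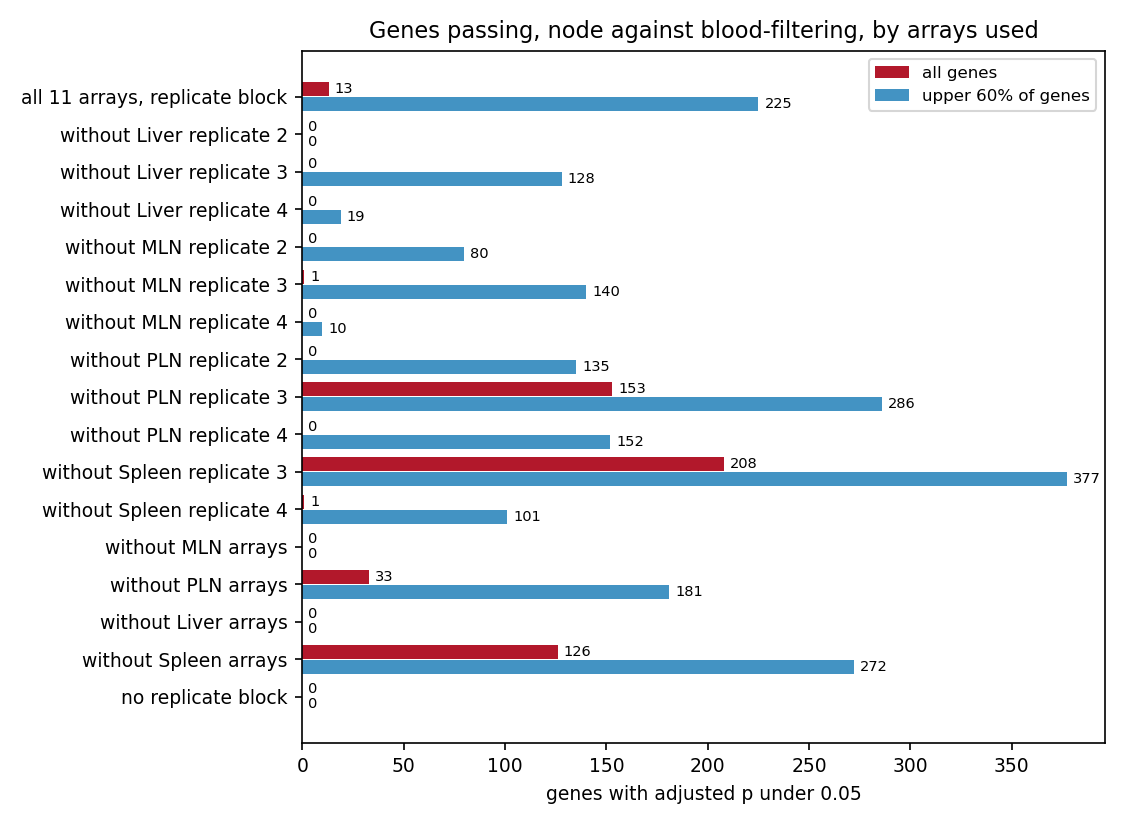
Number of genes with an adjusted p under 0.05 (horizontal axis) for all 11 arrays with the block, with each array or each organ left out, and without the block. Red bars are all 12393 genes and blue bars the 7436 brighter genes; the counts run from 13 and 225 with all arrays to 0 and 0 without Liver replicate 2, and to 208 and 377 without Spleen replicate 3.

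Whether both nodes and both other organs agree was read from a fit with a mean for each organ. In all 13 genes that passed, MLN-Liver, MLN-Spleen, PLN-Liver and PLN-Spleen had the same sign, which holds for 40.9% of all 12393 genes. The smallest of these differences was 0.24 and the largest 1.77 in size. Each of the 13 had all 4 differences at an unadjusted p under 0.05, against 145 of all genes (1.17%), and in 0 of the 13 were all 4 past the adjusted threshold. In 13 of 13 the node arrays were apart from the other arrays within every replicate (5.66% of all genes), and in 6 of 13, Gem, Basp1, Wars, Hk2, Il1b and Clec4e, over all 11 arrays (0.863%). Since the 13 were called on these arrays, this describes them and adds no test.

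The size of the difference was not the same in all organ pairs. For Hk2 the difference was 0.65 for MLN-Liver, 0.54 for PLN-Liver, 0.39 for MLN-Spleen and 0.28 for PLN-Spleen. For Paxbp1 the same 4 differences were 0.79, 0.62, 0.53 and 0.37. Clec4e ran the other way, at -1.01 and -1.32 against Liver and -1.45 and -1.77 against Spleen, and so did Il1b, at -1.27 and -0.93 against Liver and -1.54 and -1.20 against Spleen. For Wars the 4 organ pairs stood within 0.41 to 0.46. Gem too was even, from 0.68 to 0.87.

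Of the 225 brighter genes that passed, all 225 had 4 organ pairs of 1 sign, against 45.6% of the 7436 genes tested. Passing the pooled contrast of the same arrays makes 1 sign likely, so this adds no test. In 112 all 4 pairs had an unadjusted p under 0.05, against 145 of all 12393 genes (1.17%). The node arrays were apart within each replicate in 172, against 701 of all genes (5.66%). Over all arrays they were apart in 42, against 107 of all genes (0.863%). These counts too come from the arrays on which the genes were called. Their base of all 12393 genes includes dim genes that could not be among the 225, and the same shares over the 7436 genes were not counted. The largest of the 4 differences was MLN-Liver in 128 genes, PLN-Liver in 51, MLN-Spleen in 31 and PLN-Spleen in 15. Over all 12393 genes the same counts, in that order, were 2929, 3069, 3686 and 2709. Thus in most of the 225 the pair furthest apart included Liver. Liver supplies 3 of the 5 blood-filtering arrays and the only one of replicate 2, so the pooled contrast that called these genes favours gaps to Liver.

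Tested 1 organ pair at a time over all genes, MLN-Liver had 175 genes passing (1.41%), 103 higher (0.831%) and 72 lower (0.581%) with MLN. MLN-Spleen had 9 (0.0726%), all lower with MLN, PLN-Liver had 5 (0.0403%), 4 higher (0.0323%) and 1 lower (0.00807%) with PLN, and PLN-Spleen had 0, with 812 (6.55%) at an unadjusted p under 0.05. Among the brighter genes the 4 counts were 307 (4.13%), 16 (0.215%), 111 (1.49%) and 0. The pairs with Spleen have 2 arrays on 1 side, so a smaller count there does not show a smaller difference. Leaving out each array in turn moved them between 35 and 168, 3 and 11, 0 and 59, and 0 and 2.

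The organs within a class were compared in the same way. Between MLN and PLN 8 genes met the threshold (0.0646%), 1 higher (0.00807%) and 7 lower (0.0565%) with MLN, and between Liver and Spleen 0 (892 at an unadjusted p under 0.05, 7.20%). None of the 8 is among the 13 or the 225. Across genes, MLN-Liver and PLN-Spleen, taken from replicates 3 and 4 alone and sharing no array, correlated at 0.116 over all 12393 genes and 0.264 over the brighter ones. MLN-Spleen and PLN-Liver correlated at 0.0452 and 0.125. These 4 values describe the arrays, whose replicate numbers are shared, and carry no p.

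**Figure D3:**
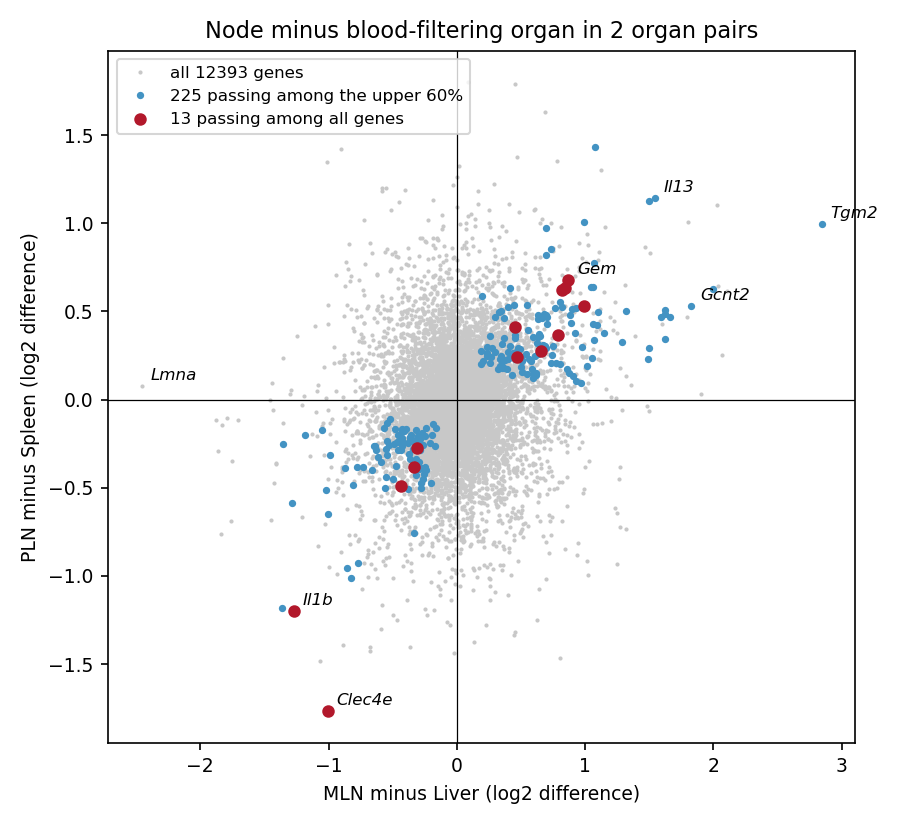
MLN minus Liver (horizontal axis) against PLN minus Spleen (vertical axis), as log2 differences, for all 12393 genes in grey, the 225 passing among the brighter genes in blue and the 13 passing among all genes in red. Every blue and red point lies in the lower left or upper right of the plot, where the pooled contrast of the same arrays tends to place genes that pass. Tgm2 is furthest right at 2.84 and 0.99, and Lmna, at -2.45 and 0.08, shows a gene carried by MLN.

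Type 2 T cell genes were higher as a group in node cultures. Of 15 measured, 13 were higher and the median difference was 0.56, where 47.2% of all genes were higher and the median of all genes was -0.01. Over all genes 0 of the 15 passed, and 11 had an unadjusted p under 0.05, against 13.5% of all genes. Among the brighter genes 8 rose, where 1.80% of those tested rose and 1.22% fell. These shares, with the 47.2%, are the background for each list below. The list was chosen with results of these arrays known and is no independent evidence of direction. In 10 of the 15 all 4 organ pairs were positive, and the median was 0.86 for MLN-Liver, 0.54 for MLN-Spleen, 0.71 for PLN-Liver and 0.30 for PLN-Spleen. By replicate number it was 0.89, 0.37 and 0.54 in replicates 2, 3 and 4.

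Il13, the interleukin that drives mucus and airway responses, had the smallest p of the type 2 list. It stood at 7.70, 10.04 and 9.21 with MLN, 7.61, 9.96 and 8.37 with PLN, 5.48, 8.87 and 7.97 with Liver, and 9.36 and 7.07 with Spleen. Replicate 3 was high in all 4 organs, and within each replicate both nodes were above both other organs. Il13 differed by 1.35 (SE 0.23, limma adjusted p = 0.0502 over all genes, 0.0191 among the brighter genes, where it rose). Its differences were 1.54 and 1.48 for MLN against Liver and Spleen, and 1.21 and 1.14 for PLN.

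The regulators and receptors of the type 2 list varied more between organs. Ccr4, a chemokine receptor of type 2 and skin-homing cells, rose among the brighter genes by 0.70 (SE 0.12, limma adjusted p = 0.0191), with organ pairs from 0.55 to 0.81. Nfil3, a transcription factor, rose there by 0.86 (SE 0.16, 0.0191), with 1.10 and 0.99 against Liver and 0.60 and 0.50 against Spleen. Ecm1, a secreted matrix protein made by type 2 cells, rose by 1.14 (SE 0.23, 0.0225), from 1.63 for MLN-Liver to 0.51 for PLN-Spleen. Il4ra, the receptor chain of interleukins 4 and 13, rose by 0.56 (SE 0.12, 0.0301), with 0.86 for MLN-Liver and 0.17 for PLN-Spleen. Irf4, a transcription factor of activated lymphocytes, rose by 0.27 (0.0484). Named after their values were seen, Gfi1 (0.56) and Il24 (1.32) rose among the brighter genes, and the dim cytokine genes Il5 (1.41) and Il4 (0.80) did not pass (adjusted p = 0.0880 and 0.191 over all genes). Gata3, the master regulator of type 2 cells, differed by 0.13 (adjusted p = 0.772), with PLN-Spleen at -0.07, so that the 2 nodes and 2 other organs did not agree for it.

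Genes induced by interleukin 2 through STAT5 were higher too. Of 17 measured, 14 were higher with a median of 0.30, where 47.2% of all genes were higher. Over all genes 0 passed, and 11 had an unadjusted p under 0.05, against 13.5% of all genes. Among the brighter genes 7 rose, against 1.80% of those tested. Ccnd2, which encodes cyclin D2, rose there by 0.30 (SE 0.05, limma adjusted p = 0.0191), with all 4 organ pairs between 0.25 and 0.34. Pim1, a survival kinase, rose by 0.37 (SE 0.07, 0.0225), Cish, a feedback inhibitor of cytokine receptors, by 0.77 (SE 0.16, 0.0225) and Bcl2, which blocks cell death, by 0.73 (SE 0.16, 0.0260). Cish was uneven between replicates, with a difference of 1.29 in replicate 2, 0.19 in replicate 3 and 1.01 in replicate 4. Il2 itself differed by 0.40 and did not pass (adjusted p = 0.546 over all genes).

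Glycolysis and hypoxia genes were higher beside Hk2. Of 21 measured, 18 were higher with a median of 0.15, where 47.2% of all genes were higher. Over all genes 1, Hk2, rose, against 0.0646% of all genes. Among the brighter genes 6 rose, against 1.80% of those tested. Pfkp, a phosphofructokinase, rose there by 0.28 (SE 0.05, limma adjusted p = 0.0191), Ero1a, an oxidase of the endoplasmic reticulum, by 0.55 (SE 0.10, 0.0191) and Egln3, an oxygen-sensing hydroxylase, by 0.55 (SE 0.12, 0.0240). The organ pairs of Egln3 were 0.77 and 0.72 against Liver and 0.25 and 0.21 against Spleen. The list median was 0.26 for MLN-Liver and 0.20 for PLN-Liver, but 0.03 for MLN-Spleen and 0.05 for PLN-Spleen. Named after their values were seen, the glucose transporter genes Slc2a3 (0.42) and Slc2a1 (0.40) also rose among the brighter genes, while Ldha (0.01), the lactate dehydrogenase gene, did not pass.

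Of 17 regulatory T cell genes, 11 were higher with a median of 0.16, where 47.2% of all genes were higher. Over all genes 0 passed, and 10 had an unadjusted p under 0.05, against 13.5% of all genes. Among the brighter genes 6 rose and 1 fell, where 1.80% of those tested rose and 1.22% fell. Tnfrsf18 and Tnfrsf4, which encode the costimulatory receptors GITR and OX40, rose there by 0.48 (SE 0.09, limma adjusted p = 0.0191) and 0.50 (SE 0.10, 0.0225). Ikzf4, a zinc finger factor, rose by 0.70 (SE 0.14, 0.0225), Entpd1, an enzyme that removes extracellular ATP, by 0.36 (SE 0.08, 0.0296) and Nt5e, which makes adenosine, by 1.14 (SE 0.28, 0.0398). With a mean level of 6.93, just above the cut, Nt5e was tested there through the node arrays, where it is high (limma adjusted p = 0.0907 over all genes). Nrp1, a co-receptor for semaphorins, fell by 0.62 (0.0379). Foxp3, the lineage factor, was too dim for the brighter set and differed by -0.11 (adjusted p = 0.812 over all genes). Several members that rose are also induced by activation in other T cells. Tnfrsf8, the activation receptor CD30, rose likewise among the brighter genes, by 0.71 (SE 0.13, 0.0191).

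Retinoic acid response genes varied widely among themselves. Of 13 measured, 9 were higher with a median of 0.59, which was 0.00 over its 7 brighter members; 0 passed over all genes (6 at an unadjusted p under 0.05) and 1 of the 7 brighter ones rose. That gene was Tgm2, a transglutaminase induced by retinoic acid, at 11.23, 12.06 and 11.34 with MLN, 10.60, 11.38 and 10.91 with PLN, 7.74, 9.98 and 8.38 with Liver, and 11.27 and 9.22 with Spleen. Liver replicates 2 and 4 and Spleen replicate 4 were low, while Spleen replicate 3 lay among the node arrays, though below both nodes of its own replicate. Tgm2 differed by 2.08 (SE 0.34, limma adjusted p = 0.0502 over all genes and 0.0161 among the brighter genes). Of its 5 other probe sets 4 differed by 1.41 to 2.23, and the fifth, near the floor, by -0.14.

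By list median the retinoic acid genes were further apart with MLN than with PLN. The list median was 1.01 and 0.97 for MLN against Liver and Spleen, and 0.08 and 0.03 for PLN. Dhrs3, which lowers retinoic acid by reducing retinal, differed by 1.19 (adjusted p = 0.0574 over all genes) with all 4 organ pairs positive, from 0.83 to 1.5. Crabp2, a retinoic acid carrier, differed by 1.44 (0.106), from 2.10 for MLN-Liver to 0.61 for PLN-Spleen. Dhrs3 and Crabp2, with mean levels of 5.55 and 5.98, were too dim for the filtered test. Hic1, a transcriptional repressor, differed by 0.81 (0.144), with 1.48 for MLN-Liver and -0.03 for PLN-Spleen, so PLN and Spleen did not differ in the direction of the pooled contrast. The gut homing list, which retinoic acid is known for inducing, had 5 of 9 genes higher, a median of 0.01 and 0 passing in either set (1 at an unadjusted p under 0.05).

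**Figure D4:**
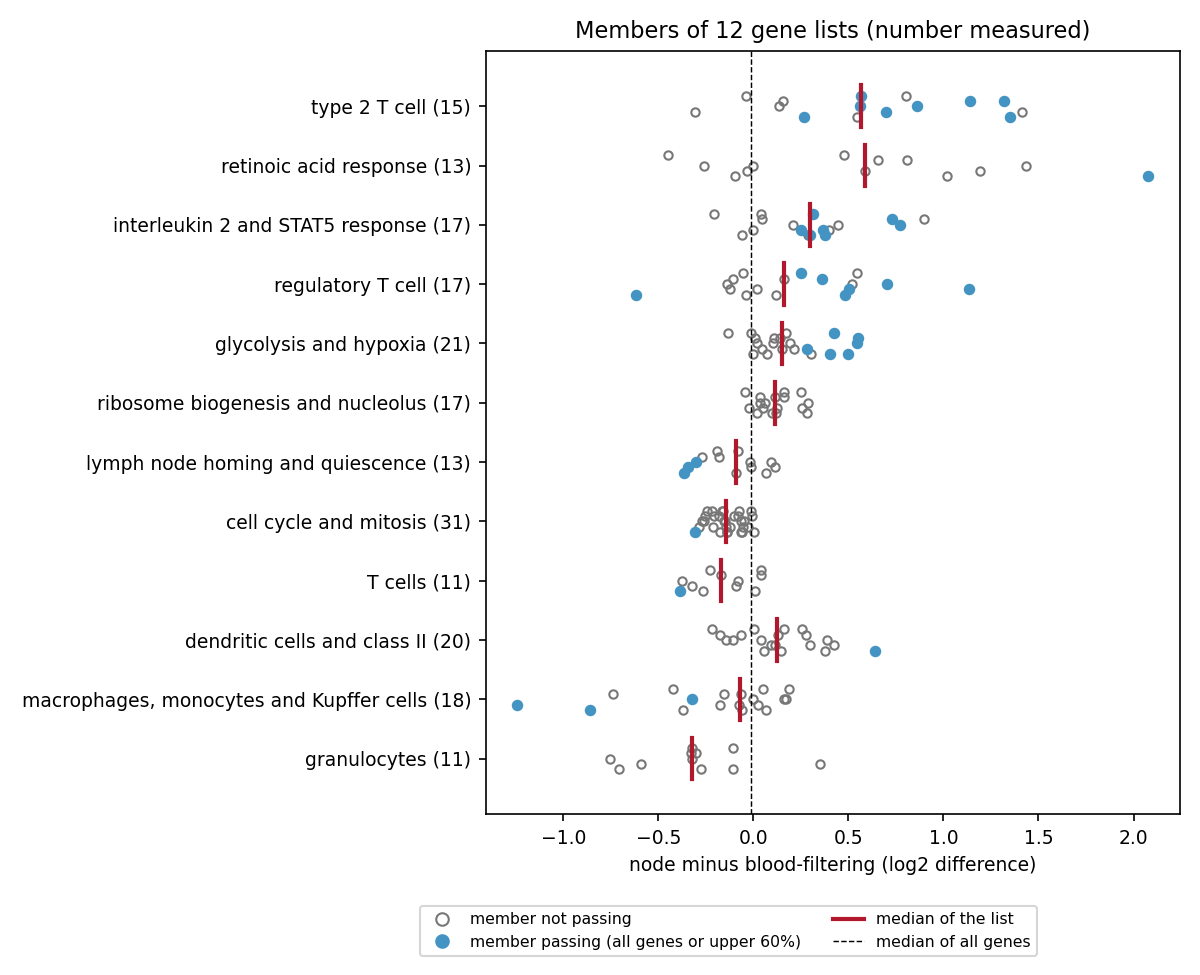
Node minus blood-filtering log2 difference (horizontal axis) of each measured member of 12 gene lists. Filled blue points passed among all or among the brighter genes, open points did not, red bars are list medians and the dashed line is the median of all genes at -0.01; the type 2 list has its median at 0.56, the cell cycle list at -0.14 and the granulocyte list at -0.32.

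Some myeloid markers fell together with Il1b and Clec4e, and others did not. Of 18 markers of macrophages, monocytes and Kupffer cells 12 lay below 0 and the median was -0.07, where 47.2% of all genes were higher and their median was -0.01. In 4 of the 18 all 4 organ pairs were negative. Fcgr1, Mrc1, Spic, Hmox1, Marco and C1qc were the 6 that lay above 0, by 0.02 to 0.19. Of the 18, 0 passed over all genes (4 at an unadjusted p under 0.05) and 3 of the 6 brighter ones fell. Cd14, the co-receptor for endotoxin, stood at 6.80, 6.53 and 5.39 with MLN, 6.53, 7.12 and 6.40 with PLN, 7.65, 7.48 and 7.68 with Liver, and 7.94 and 7.64 with Spleen. All node arrays lay below all others, and Cd14 fell among the brighter genes by 1.24 (SE 0.23, limma adjusted p = 0.0191, against 0.0502 over all genes). Its mean level of 7.01 was near the cut and most node arrays lay below that cut. Cd14 was thus tested there through the blood-filtering arrays, where it is high. Lyz2, the lysozyme of macrophages and neutrophils, fell there by 0.86 (SE 0.15, 0.0191, against 0.0502 over all genes), with organ pairs from -1.0 to -0.65. Its mean level of 7.20 was near the cut too. Ctss, a protease of antigen-presenting cells, fell by 0.32 (SE 0.08, 0.0445).

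The summed intensity of the 18 macrophage markers ran from 2900 to 3968 on the node arrays and from 3384 to 4725 on the blood-filtering arrays. For 11 granulocyte markers the sums were 449.0 to 587.4 and 583.6 to 777.3, with 10 of 11 lower and a median of -0.32. Only 1 granulocyte marker was bright enough for the filtered test and 0 passed over all genes (1 at an unadjusted p under 0.05); Ltf differed by -0.70 and S100a8 by -0.59. Both lists were lower in each of the 4 organ pairs by median. Fewer myeloid cells and less RNA per cell cannot be told apart in such bulk RNA. The part of these cells in the lower Il1b and Clec4e was not tested.

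Dendritic cell and class II genes were more often higher than lower in node cultures. Of 20 measured, 15 were higher with a median of 0.12; 0 passed over all genes (3 at an unadjusted p under 0.05), and Batf3, a factor of cross-presenting dendritic cells that T cells also express, rose among the brighter genes by 0.64 (SE 0.16, limma adjusted p = 0.0465). Its organ pairs ran from 0.25 for MLN-Spleen to 0.92 for PLN-Liver. H2-Ab1, a class II chain, differed by 0.43 (0.165 over all genes), Cd74 by -0.11 and Itgax by -0.22. Hepatocyte markers, which liver-derived preparations could carry, had 7 of 13 higher, a median of 0.00 and 0 members bright enough for the filtered test. B cell and plasma cell markers had a median of 0.08 with 0 passing in either set (1 at an unadjusted p under 0.05).

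**Figure D5:**
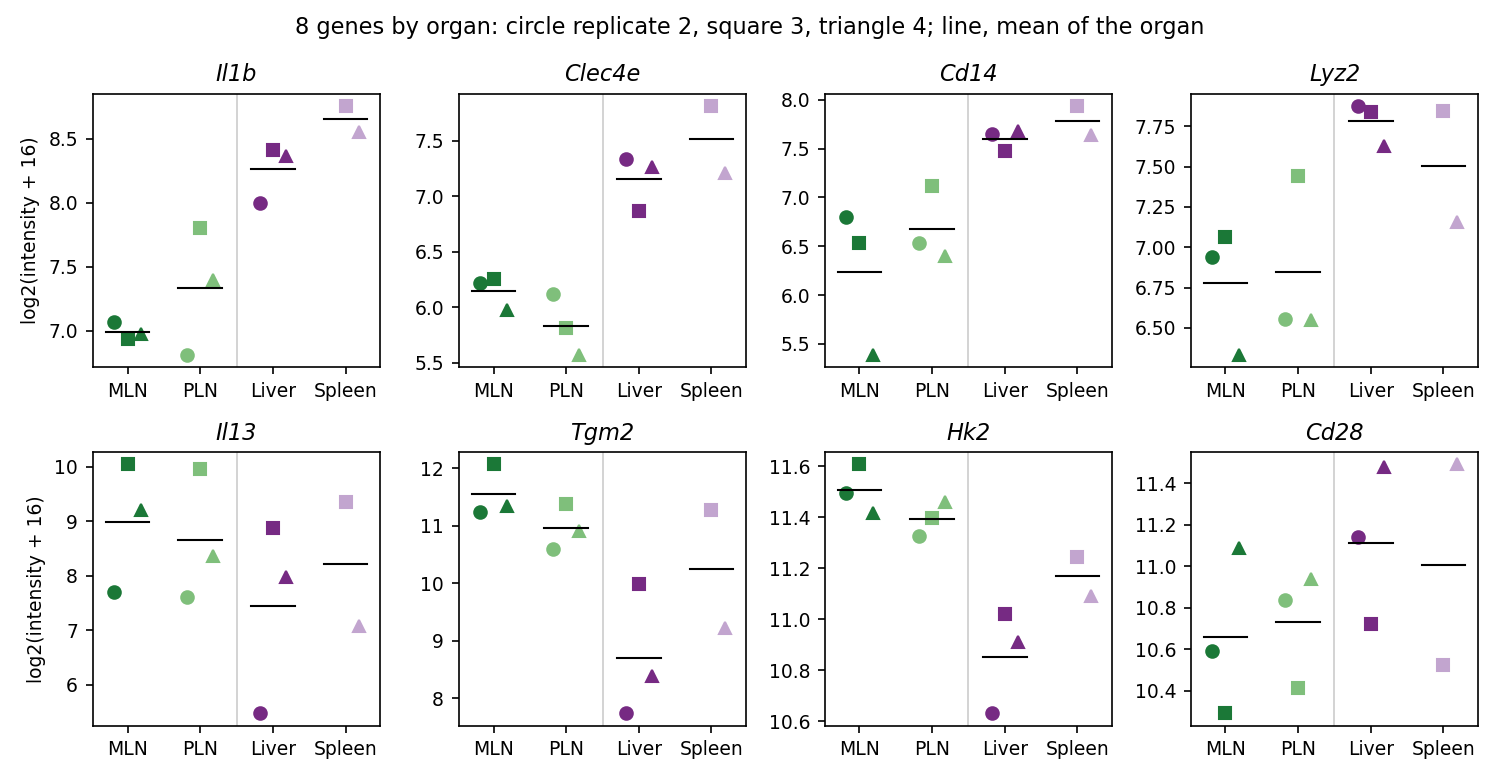
Levels, as log2(intensity + 16), of 8 genes in the 4 organs; points are arrays, with the marker for the replicate, and lines are organ means. Il1b, Clec4e and Cd14 are lower on all MLN and PLN arrays than on all Liver and Spleen arrays, and Hk2 is higher on all of them. For Tgm2 and Il13 Spleen replicate 3 (11.27 and 9.36) lies among the node arrays, though below both nodes of its own replicate.

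Cell cycle genes were lower in node cultures by small amounts. Of 31 measured, 30 were lower, with a median of -0.14, where 47.2% of all genes were higher. Over all genes 0 passed, and 13 had an unadjusted p under 0.05, against 13.5% of all genes. Among the brighter genes 1 fell, where 1.22% of those tested fell. That gene was Ccnb2, which encodes cyclin B2, lower by 0.31 (SE 0.06, limma adjusted p = 0.0301). Cenpa, a centromere histone, differed by -0.26 and Birc5, survivin, by -0.25, neither passing. The list median was -0.18 and -0.22 for MLN and PLN against Liver, and -0.03 and -0.06 against Spleen, so the shift was larger against Liver. By replicate it was -0.26, -0.01 and -0.20, and replicate 2 holds Liver alone on that side. Stmn1, a microtubule regulator of dividing cells, and H2ax, a histone variant, fell among the brighter genes by 0.30 and 0.33 (limma adjusted p = 0.0191 and 0.020).

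Genes of resting and recirculating T cells and T cell surface genes also tended lower. Of 13 genes of lymph node homing and quiescence, 10 were lower with a median of -0.09, and among the brighter genes 3 fell. These were S1pr1, the receptor that lets T cells leave lymphoid tissue, by 0.36 (SE 0.08, limma adjusted p = 0.0390), Il7r, the interleukin 7 receptor, by 0.34 (SE 0.08, 0.0409) and Tob1, an inhibitor of proliferation, by 0.30 (SE 0.07, 0.0488). Over all genes 0 of the 13 passed (5 at an unadjusted p under 0.05). Il7r had -0.47 and -0.54 for MLN and -0.16 and -0.24 for PLN, against Liver and Spleen in turn, whereas S1pr1 was even between the nodes, at -0.28 against Liver and -0.50 against Spleen for both.

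Of 11 T cell markers 8 were lower and the median was -0.17, where 47.2% of all genes were higher. Among the brighter genes, where 1.22% of those tested fell, Cd28, the main costimulatory receptor, fell by 0.38 (SE 0.06, limma adjusted p = 0.0191). Cd5 and Cd6, which restrain receptor signalling, differed by -0.38 and -0.32 and did not pass. Of 6 genes of the CD4 and CD8 lineages 5 were lower with a median of -0.11. Cd4 fell among the brighter genes by 0.31 (SE 0.06, limma adjusted p = 0.0281), while its second, dimmer probe set stood at 0.08. Of the genes of the CD8 chains, Cd8b1 differed by -0.20 (0.160) with all 4 organ pairs negative and Cd8a by -0.02. The summed intensity of the T cell markers was 30412 to 41045 on the node arrays and 34173 to 41372 on the others, so these overlapped. Slamf6, a receptor of the SLAM family, fell among the brighter genes by 0.52 (SE 0.09, 0.0191) and was lower on every node array than on every other array. The part of the share of T cells or of CD4 cells in these values was not tested.

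Type 1 T cell genes gave no common direction. Of 19 measured, 10 were higher with a median of 0.02, where 47.2% of all genes were higher. Over all genes 0 passed, and 7 had an unadjusted p under 0.05, against 13.5% of all genes. Il12rb1, an interleukin 12 receptor chain, rose among the brighter genes by 0.59 (limma adjusted p = 0.020). Cxcr3, a chemokine receptor of type 1 cells, differed by -0.61 (0.115 over all genes), with -0.81 and -0.89 against Liver and -0.18 and -0.26 against Spleen. Tbx21, the type 1 master regulator, differed by -0.33 (0.351) and Ifng by 0.43 (0.212). Pdcd1, the inhibitory receptor PD-1, fell among the brighter genes by 0.87 (SE 0.21, 0.0362), from -1.36 for MLN-Liver to -0.25 for PLN-Spleen. Ccl5, a chemokine of cytotoxic cells, fell there by 0.60 (0.0379) and Klrk1, the receptor NKG2D, by 0.75 (0.0301).

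Several genes with large differences between single organs did not separate the 2 classes. Lmna, which encodes A-type lamins, differed by -1.26 (SE 0.46, limma adjusted p = 0.228 over all genes). Its other probe sets, all dimmer, differed by -0.49, 0.37 and 0.07, at mean levels of 7.29, 5.60 and 4.78. Its organ pairs were -2.45 and -1.91 for MLN, and -0.47 and 0.08 for PLN, against Liver and Spleen. Fut7, the fucosyltransferase of selectin ligands, differed by -1.07 (0.107), with -1.83 and -1.20 for MLN and -0.77 and -0.14 for PLN. Sema4a, a semaphorin, differed by -0.96 (0.131) and Plxnc1, a semaphorin receptor, by -0.57 (0.363), each with a PLN-Spleen difference no larger than 0.11 in size.

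In the opposite direction, Gcnt2, which branches glycans, differed by 1.28 (SE 0.24, limma adjusted p = 0.0505 over all genes) and rose among the brighter genes (0.020). It fell short of agreement by size and not by sign, at 1.83 and 1.0 for MLN and 1.36 and 0.53 for PLN against Liver and Spleen. Espn, an actin-bundling protein, differed by 1.67 (SE 0.28, 0.0502 over all genes), and was too dim for the filtered test. It stood at 7.37, 6.07 and 7.37 with MLN, 7.27, 6.01 and 7.29 with PLN, 4.89, 4.93 and 4.90 with Liver, and 5.60 and 5.62 with Spleen. The classes did not overlap, with Liver near the floor of the scale and Spleen between Liver and the nodes, so its difference is the more understated.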

How the data were processed

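T cell RNA was measured on 11 single-colour mouse arrays. The authors deposited linear intensities, 1 for each probe set on each array; the values themselves show that each array had been scaled, since the mean after trimming 2% at each end was 500.2 on each. Software, probe summarisation and scanner settings: not given in the sources used here. Intensities ran from 0.1 to 21556.3, and the number of arrays limits the precision. Of 22690 probe sets, 64 controls were left out, 20380 had 1 gene symbol, 691 several and 1555 none; the last 2 kinds were not used. Symbols came from the platform annotation and 20351 were updated to GRCm38.p6. Values were transformed to log2(intensity + 16) and quantile normalized, and the probe set of highest mean stood for each of 12393 genes (4956 had several).

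Class means (MLN and PLN against Liver and Spleen) with the replicate number as a fixed block were fitted over all 11 arrays and all genes with limma 3.58.1 in R 4.3.3 (lmFit, eBayes with a variance trend, 7 residual degrees of freedom, Benjamini-Hochberg at 0.05). A second fit had 4 organ means (5 residual degrees of freedom). The scripts were tested on simulated data. After organ means were removed, arrays of the same number correlated at 0.156 to 0.435 (15 pairs) and others at -0.435 to 0.0612 (30 pairs). By this measure 11 of 11 arrays correlated best with their own number. Deviations within an organ cancel out once its mean is removed, so the negative values follow from the positive ones and add no evidence. The pairing is read from the titles and this check. The comparison, its members and the 44 gene lists (634 of 714 entries measured) were chosen with earlier results of these data known. Genes named are those passing, up to 15 in each direction by p and filled to 10, and the 4 of smallest p in each list. To these come the 5 in each direction of smallest largest p over the organ pairs, and 20 set genes of homing, cytokines and lineage. Most other genes are marked in the text as picked with their values known. Exceptions without a mark include Cd74, Itgax, Cd8a, Mad2l1 and the macrophage markers named as higher, which this rule did not name. Alternatives covered block, scaling, pseudocount, filter, probe sets, variance trend and each array or organ left out; the settings run within the upper 60% of genes were added after seeing the data. Figures were drawn with matplotlib 3.10.9.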

Additional observations from a re-analysis of the deposited data

Results flagged for a closer look

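For 8 genes the nodes themselves differed, in limma's test of MLN minus PLN with 4 organ means and the replicate block over all 12393 genes. Sema4a stood at -1.19 (adjusted p = 0.000262), Lmna at -1.98 (0.000589), Plxnc1 at -1.12 (0.00254), Sema4f at -1.31 (0.00254), Prnp, the prion protein, at -0.69 (0.0210), Il17a at -1.04 (0.0232), Lztfl1, a ciliary trafficking protein, at 1.21 (0.0295) and Klrc1, an NK-type receptor, at -1.12 (0.0412). Pooling MLN with PLN hides them: 0 of the 8 passed between the classes. Il17a, the type 17 cytokine, had 0.24 for MLN-Liver and -0.76 for MLN-Spleen, against 1.28 for PLN-Liver and 0.28 for PLN-Spleen. Prnp, Il17a, Lztfl1, Sema4f and Klrc1 were taken up because they passed this test.

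Some arrays stood apart from the others of their class. Chance alone gives about 1 in 20, and 188 combinations of gene and class were looked at. Those listed here are about as many as chance alone gives. The gap to the nearest array is given as a share of the range of the class. In the blood-filtering cultures these were Crabp2 in Spleen replicate 3 (0.780, at 6.80 against at most 4.97 elsewhere), H2-Ab1 in Spleen replicate 4 (0.797), Mad2l1, a mitotic checkpoint gene, in Spleen replicate 4 (0.711), Ccna2 in Spleen replicate 4 (0.757), Ccnb2 in Liver replicate 2 (0.754), Birc5 in Liver replicate 4 (0.830) and Hspa1a, a heat shock gene, in Liver replicate 2 (0.733). In the node cultures they were Cxcr3 (0.646) and Tbx21 (0.672), both highest in MLN replicate 4.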

How the results depend on the processing

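The count of genes passing between the classes, 13 in the reported fit, kept its size under no other setting tried. In brackets is the count with all 4 organ pairs in 1 direction. It was 0 (0) with no replicate block, 2 (2) with a random replicate block, 107 (103) with 4 organ means and the block and 0 (0) over replicates 3 and 4 alone. It was 93 (93) with intensities as deposited, 8 (8) with median centring, 109 (109) and 7 (7) with pseudocounts of 1 and 64, 57 (57) with the mean of all probe sets, 0 (0) with no variance trend and 225 (225) among the upper 60% of genes. Without the MLN, PLN, Liver or Spleen arrays it was 0, 33, 0 or 126, and with single arrays left out 0 to 208 (0 to 208). All of the 13 that a setting tested kept their direction in 26 of 26 settings. The 13 were called on these arrays, which the settings reuse, so a kept direction adds no test. The cause of the moving count was not tested.

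Among the upper 60% of genes, where 225 (225) passed, the counts were 0 (0) with no replicate block, 81 (81) with a random one, 0 (0) over replicates 3 and 4, 17 (17) with no variance trend, 0 without MLN or without Liver arrays, and 0 to 377 (0 to 376) with single arrays left out. All 225 kept their direction in 24 of 25 settings and 223 of them with the mean of all probe sets. The 225 too were called on the arrays reused here, so this adds no test.

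Between single organs the count without the block was 6 for MLN-Liver, 0 for MLN-Spleen, 0 for PLN-Liver and 1 for MLN minus PLN. In the upper 60% it was 307, 16 and 111 for the first 3. With single arrays left out it ran from 35 to 168 for MLN-Liver, 3 to 11 for MLN-Spleen, 0 to 59 for PLN-Liver, 0 to 2 for PLN-Spleen, 4 to 8 for MLN minus PLN and 0 to 2 for Liver minus Spleen. Of the list medians 23 were above 0, and 17 to 24 with single arrays left out. Of 1143 list medians recomputed, 1041 moved by less than the spread between replicates and 102 by more. Of 2434 recomputed differences of named genes, 1922 kept direction and side of the threshold, 214 lost the call, 297 gained it and 1 reversed, Gata3 at -0.00245 without MLN arrays.

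With 11 arrays, 2 of them Spleen, small differences are not detectable, and dim genes have compressed differences. Replicate 2 has no Spleen array, so there the contrast is against Liver alone. Organ, dendritic cell preparation and any cells carried along with it cannot be told apart in this design.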

Other observations

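Further gene lists stood apart from the median of all genes by small amounts, and over all genes 0 of their members passed. The background for each list in this section is that 47.2% of all genes were higher and 13.5% had an unadjusted p under 0.05. Of the brighter genes, 1.80% rose and 1.22% fell. Ribosome biogenesis and nucleolar genes had 15 of 17 higher in node cultures with a median of 0.12 (5 at an unadjusted p under 0.05, 0 passing among the brighter genes). Genes of the unfolded protein and amino acid response had 15 of 18 higher with a median of 0.13, and 1 rose among the brighter genes: Xbp1, a transcription factor of that response, by 0.42 (SE 0.10, limma adjusted p = 0.0363). Its difference was 0.78 in replicate 2, 0.06 in replicate 3 and 0.55 in replicate 4. Of 10 heat shock genes 7 were higher with a median of 0.09. Hspa1a differed by 1.37 (SE 0.34, limma adjusted p = 0.0921 over all genes and 0.0415 among the brighter genes). MLN replicate 2 (9.92) and PLN replicate 2 (10.23) stood above all other arrays, of which the highest was at 7.11. Hspa1a was bright enough for the filtered test only through these 2 node arrays, so its call there rests on them. Cytotoxic granule genes had 13 of 16 higher with a median of 0.07 and 0 passing in either set (3 at an unadjusted p under 0.05).

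Effector T cell chemokines had 9 of 13 lower with a median of -0.34, where Ccl5 fell among the brighter genes and Ccl4, a chemokine of cytotoxic and activated T cells, stood at -0.51 (0.0643). Genes of lamins and the nuclear envelope had 10 of 12 lower with a median of -0.13; Sun2, an inner nuclear membrane protein, fell by 0.35 (SE 0.07, limma adjusted p = 0.0240). S100, annexin and galectin effector genes had 11 of 14 lower with a median of -0.13, and Crip1, a small LIM-domain protein, fell by 0.32 (SE 0.07, 0.0240). Among single members of other lists, Isg20, an interferon-induced exonuclease, rose by 0.68 (SE 0.14, 0.0240), P2rx4, an ATP-gated ion channel, by 0.64 (SE 0.15, 0.0317), Cxcr4, a chemokine receptor, by 0.53 (SE 0.13, 0.0416) and Jun, an AP-1 subunit, by 0.68 (0.020), while Nr4a1, an early gene of receptor signalling, fell by 0.44 (0.0386). For P2rx4 the organ pairs ran from 1.01 for MLN-Liver to 0.19 for PLN-Spleen. The adjusted p in this paragraph are those among the brighter genes.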
